A study of Homo sapiens with 4 samples.

Results

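Growth factor receptors can carry growth signals in prostate cancer cells whose androgen receptor is blocked, and chromatin accessibility was examined at 10 of their genes: EGFR, ERBB2, ERBB3, ERBB4, FGFR1, FGFR2, FGFR3, FGFR4, MET and IGF1R. The genes were listed by name as receptors of such a bypass, by a rule that uses no accessibility value, though with earlier results of these data known, and all 10 were found among 20037 protein-coding genes of the main chromosomes. ATAC-seq, in which a transposase cuts open chromatin, had been run on 2 libraries of LNCaP, an androgen-sensitive human prostate cancer cell line labelled wild type, and on 2 libraries of LNCaP-resistance, a line derived from it, labelled as resistance cells and as treated with enzalutamide, an androgen receptor antagonist. The labels give RPMI-1640 medium with fetal bovine serum for both lines, and each line contributed the batches repeat1 and repeat2. Per the study's methods, resistant sublines were derived from LNCaP by adaptation to charcoal-stripped serum, which is low in androgen, followed by rising doses of enzalutamide. The acquired state, that adaptation and the drug therefore go together in the resistant libraries and cannot be told apart, and the comparison rests on 1 resistant line. Nothing in the labels says that the 2 libraries of a line came from separate cultures, so the spread between them may be technical.

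For each gene, every peak summit in the gene body and in 20 kb on either side was taken. The lists held 145 and 135 such summits in LNCaP replicates 1 and 2 and 92 and 60 in resistant replicates 1 and 2, out of 117245, 107344, 70866 and 45618 summits in all. Per 10000 summits of a list these were 12.4, 12.6, 13.0 and 13.2, so the 10 genes kept nearly the same share of each list while the resistant lists were shorter. Of 8 genes of prostate luminal identity, 7 had a summit within 1 kb of a gene end in all 4 libraries and KLK3 had none in any. Of 6 markers of immune, endothelial and fibroblast cells, none had one in all 4 libraries and only CD3E had one at all, in 2 libraries.

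The receptors are tyrosine kinases of the cell surface. Most of them pair on binding a ligand. The paired receptors phosphorylate each other and pass the signal through adaptors to the RAS-MAPK and PI3K-AKT cascades, which drive growth and survival. In prostate tissue some of their ligands, such as HGF and FGF10, come from the stroma, and raised activity of these receptors is one of the known routes by which prostate cancer cells grow with little androgen receptor signalling.

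The stretches just before the gene starts are shown for the 3 genes whose start-site summits rose most in rank, ERBB4, IGF1R and FGFR3, and beside them for FGFR4, whose start-site summits overlapped between the groups. Only windows free of another protein-coding gene were printed, which leaves out ERBB2, whose start faces that of PGAP3, and no sequence of FGFR1 is given. They are the 250 bases before the RefSeq gene start in GRCh38.p14, written 5′ to 3′ in the direction of the gene. Capitals mark matches to the motifs searched.
ERBB4: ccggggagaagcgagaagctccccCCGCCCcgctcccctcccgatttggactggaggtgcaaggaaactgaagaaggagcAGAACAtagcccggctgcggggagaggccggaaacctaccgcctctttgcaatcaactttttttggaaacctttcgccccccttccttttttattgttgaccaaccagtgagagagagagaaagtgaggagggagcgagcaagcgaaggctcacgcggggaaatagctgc
IGF1R: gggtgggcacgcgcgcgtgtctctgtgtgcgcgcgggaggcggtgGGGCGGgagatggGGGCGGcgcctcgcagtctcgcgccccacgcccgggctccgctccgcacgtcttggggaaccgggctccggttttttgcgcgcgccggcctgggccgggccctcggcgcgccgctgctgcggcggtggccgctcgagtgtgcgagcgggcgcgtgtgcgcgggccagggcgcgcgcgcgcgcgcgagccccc
FGFR3: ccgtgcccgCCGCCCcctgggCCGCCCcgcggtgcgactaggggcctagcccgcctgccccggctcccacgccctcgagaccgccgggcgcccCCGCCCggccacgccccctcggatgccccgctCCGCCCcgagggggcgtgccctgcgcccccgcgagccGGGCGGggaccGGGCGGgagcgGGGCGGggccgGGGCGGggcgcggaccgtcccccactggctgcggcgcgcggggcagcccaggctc
FGFR4: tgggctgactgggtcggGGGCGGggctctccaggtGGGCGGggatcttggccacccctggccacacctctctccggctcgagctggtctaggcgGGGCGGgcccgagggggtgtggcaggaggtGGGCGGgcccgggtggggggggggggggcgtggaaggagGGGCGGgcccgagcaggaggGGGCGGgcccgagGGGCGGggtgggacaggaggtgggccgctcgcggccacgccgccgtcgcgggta
The ERBB4 stretch is chr2:212538803-212539052 on the minus strand. The other 3 lie on the plus strand, IGF1R at chr15:98648289-98648538, FGFR3 at chr4:1793043-1793292 and FGFR4 at chr5:177086665-177086914. Matches on either strand were counted for CCAAT, the box of that name, and for GGGCGG (the so-called GC box), TGANTCA (AP-1), TGTTTAC (forkhead), AGAACA (androgen receptor half-site), TGACGTCA (CRE) and CACGTG (E-box), none of which contains another. The GC box, the letters bound by SP1-type factors, was present in 7 of the 8 receptor promoters in the table used, all but that of ERBB2, against 42.6% of 35116 promoters of the same length. The FGFR3 stretch held 8 of them and the FGFR4 stretch 7. The androgen receptor half-site was present only in the ERBB4 stretch, where 12.4% of all promoters hold it, and AP-1 only in that of ERBB2 (6.57% of all). CCAAT was present in 2 receptor promoters (32% of all), and the forkhead, CRE and E-box letters in none (2.98%, 1.65% and 6.34% of all). The median GC content of these 8 promoters was 76%, against 58% over all. A match of letters is a description of the window and not a binding site.

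Each summit was extended 250 bp both ways, and those of the 4 libraries that then overlapped were merged into regions, of which 191 of 150917 lay at the 10 genes. A region was called LNCaP-only or resistant-only when both libraries of that group and neither of the other had a summit in it, and shared when all 4 had. At the receptor genes 53 regions were LNCaP-only, 27.7% against 27.5% of all regions, and 8 were resistant-only, 4.19% against 3.84% of all. Shared regions numbered 42, 22.0% against 21.1% of all, and the remaining 88 were of other combinations. As a set, the receptor genes thus lost and gained regions in nearly the shares of the whole genome. These shares changed with the summits that were kept. With every list limited to its 45618 highest scores, 15 of 105 regions were LNCaP-only and 15 resistant-only. That is 14.3% each, against 17.1% and 14.9% of all regions in the same setting.

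Within the set the genes differed widely. LNCaP-only regions were present at 9 of the 10 genes, all but FGFR4, while resistant-only regions were present at EGFR, with 5, and ERBB4, with 3. In lists of equal length, resistant-only regions were present at EGFR (4), ERBB3 (1), ERBB4 (5), FGFR3 (2), MET (2) and IGF1R (1). LNCaP-only regions were then present at EGFR (2), FGFR1 (1), FGFR2 (1), FGFR3 (2) and IGF1R (9). Which genes hold either kind thus depends on list length, and the share of all gene windows with such regions is not given here. Of the 53 LNCaP-only regions of the full lists, 25 lay at IGF1R and 11 at EGFR. Without IGF1R the counts were 28 LNCaP-only, 8 resistant-only and 36 shared of 135 regions. These are 20.7%, 5.93% and 26.7%, against 27.5%, 3.84% and 21.1% of all regions. The closeness of the LNCaP-only share to that of all regions thus rested on IGF1R. Regions with their middle inside the gene body made up 47 of the 53 LNCaP-only regions, all 8 resistant-only and 26 of the 42 shared regions. These are 88.7%, 100% and 61.9%, against 81%, 67.7% and 61.4% of the regions of these kinds over the windows of all protein-coding genes. The genes' own starts held 11 shared regions and 1 LNCaP-only region, which lay at a second annotated start of EGFR.

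**Figure D1:**
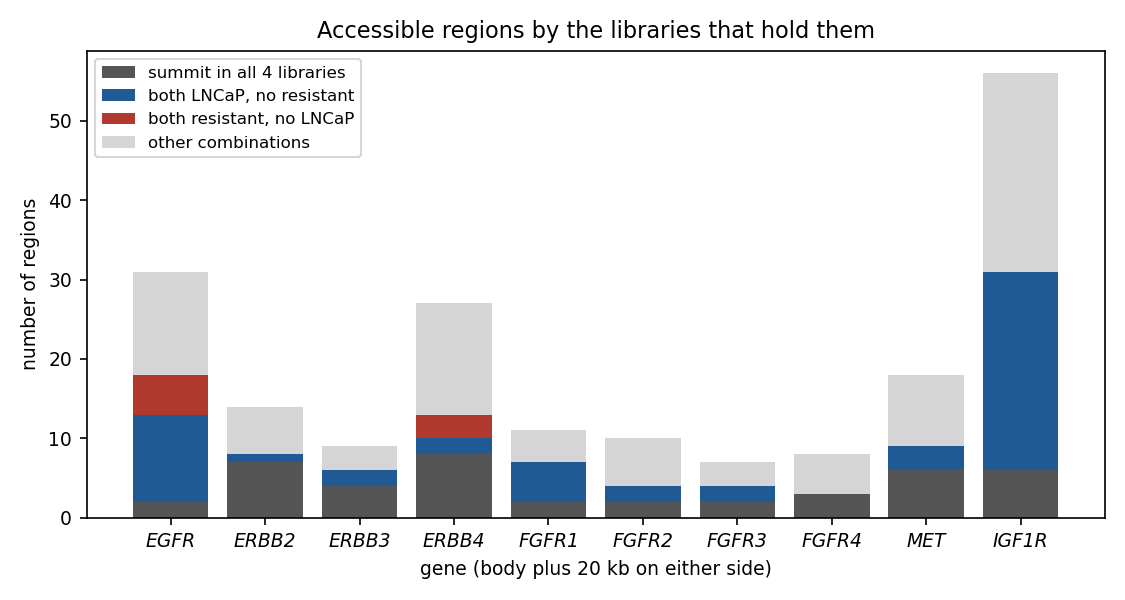
Number of accessible regions (y axis) in the window of each receptor gene (x axis, gene body plus 20 kb on either side), stacked by the libraries that hold a summit there. IGF1R carried the most regions, 56, of which 25 were seen in both LNCaP libraries and in neither resistant one, and red blocks are seen at EGFR (5 regions) and ERBB4 (3 regions).

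Summits were then compared by rank. The score of each summit was expressed as a percentile, the percent of summits in the same list with an equal or lower score, since the scores of 2 libraries are not on 1 scale. For each gene the strongest summit within 1 kb of its annotated start was taken. All 10 receptor genes had such a summit in all 4 libraries, which was so for 58.6% of 15844 protein-coding genes with a known start. With 2 libraries a group, an exact permutation test (two-sided) cannot return a p below 0.333, so no difference can be called by p, and each is set against the pooled SD of the replicates and by whether the groups overlap. The groups did not overlap at 4 receptor genes, ERBB3, ERBB4, FGFR3 and IGF1R, all higher in the resistant libraries, where 28.8% of 11550 genes were higher without overlap. None was lower without overlap, where 20.7% of those genes were. The median difference, resistant minus LNCaP, was 3.51 percentile points over the 10 genes and 0.627 over all genes. In lists of equal length 8 of the 10 were higher and none lower, but 66.1% of all genes were then also higher and 5.42% lower, with a median difference of 16.0 over all genes. The direction of single starts depended on this choice: ERBB2, FGFR2 and FGFR4, which were lower on average in the full lists, differed by 6.77, 12.1 and 36.8 in lists of equal length. Differences at starts are therefore read beside those in lists of equal length. Percentiles there were taken anew in the shortened lists, and a start whose summit was cut was given 0. This by itself lowers ranks most in the LNCaP lists, which were cut most. Percentiles in the full lists depend on list length too, since a list with fewer weak summits gives the same strong sites lower percentiles. The resistant lists were shorter, and how far this lowers their full-list percentiles was not tested.

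**Figure D2:**
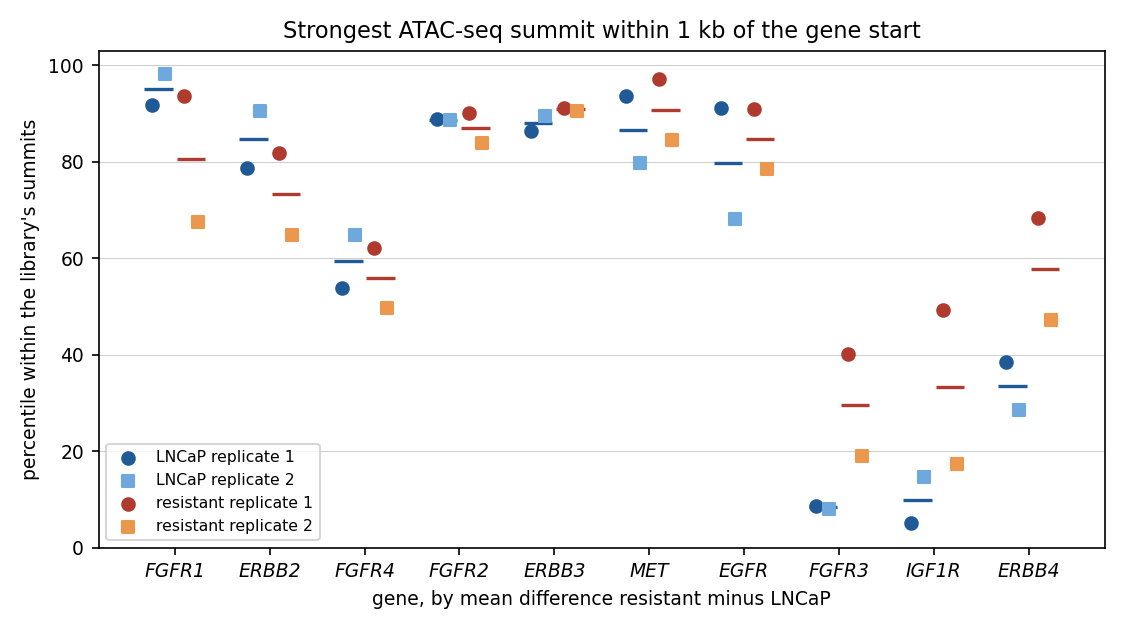
Percentile of the strongest summit within 1 kb of the gene start (y axis, percentile within the library's own list) for the 10 receptor genes (x axis, ordered by the difference between group means). Points are single libraries and short bars the means of 2 libraries. The low-ranking starts of FGFR3, IGF1R and ERBB4 sat higher in both resistant libraries than in either LNCaP library, though IGF1R was lower when 3 kb was used, while most of the high-ranking starts overlapped between the groups.

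EGFR, the receptor of epidermal growth factor, is at chr7:55019017-55211628 and showed regions of both kinds. It had 31 regions, of which 11 were LNCaP-only, 5 resistant-only and 2 shared. Only 19 of the 20037 gene windows, 0.0948%, held as many resistant-only regions as EGFR, and 7, 0.0349%, held as many of both kinds, a count that grows with the length of the window. Its start-site summit was at percentile 91.2 and 68.2 in the LNCaP libraries and at 91.0 and 78.5 in the resistant libraries. The groups overlapped there, with a difference of 5.06 points against a pooled SD of 13.1. The EGFR start differed by 31.0 points in lists of equal length and by 19.4 in percentiles taken among shared regions, so its size depends on the scale.

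In LNCaP the strongest EGFR summit was not at the start but 158.9 kb inside the gene. That region, chr7:55177631-55178138, was at percentile 93.5 and 95.2 in LNCaP and had no summit in either resistant library. A neighbouring LNCaP-only region at chr7:55181197-55181704 was at 83.2 and 91.3, and another, at chr7:55093622-55094150, was at 60.9 and 68.2. In both resistant libraries the strongest EGFR summit was the one at the start. That second annotated start of EGFR, 90.8 kb into the gene, had a summit within 1 kb at percentile 34.4 and 33.1 in LNCaP and none in the resistant libraries. The shared region 29.5 kb from the start was at 84.8 and 81.4 in LNCaP and at 73.1 and 36.2 in the resistant libraries, lower without overlap.

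The resistant-only regions of EGFR lay in the same gene body at other positions. The strongest, chr7:55065020-55065541 at 46.3 kb, was at percentile 63.5 and 45.4 in the resistant libraries. Those at chr7:55132779-55133280 and chr7:55073854-55074356 were at 56.5 and 37.9 and at 53.8 and 36.6. All 3 ranked below the strongest LNCaP-only regions of the gene. With lists of equal length EGFR had 4 resistant-only and 2 LNCaP-only regions, each overlapping a region of the same kind in the full lists, whereas among summits scored at least 10 it had 5 LNCaP-only and no resistant-only region. The number of EGFR summits, 17 and 20 in LNCaP and 10 and 10 in the resistant libraries, fell by 8.5 on average (pooled SD 1.5) but was 2 higher in lists of equal length.

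**Figure D3:**
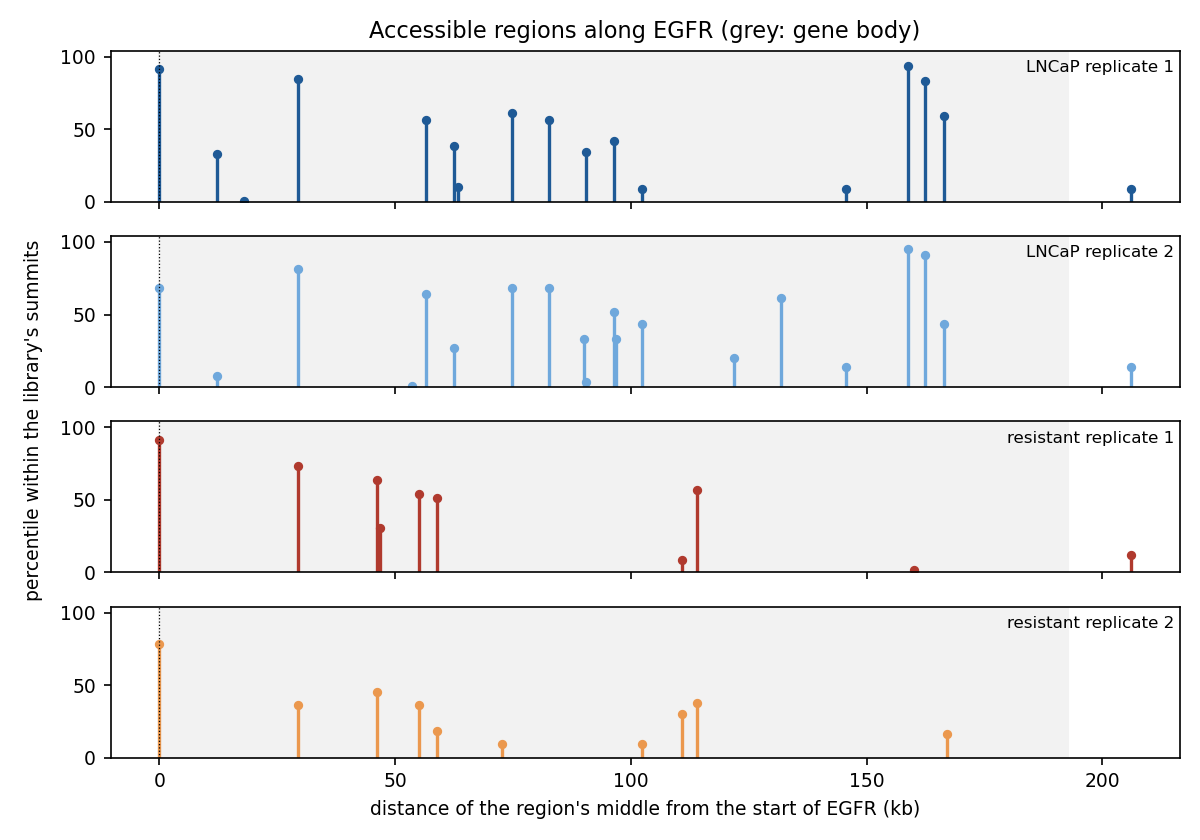
Accessible regions along EGFR in each library. The x axis is the distance of a region's middle from the gene start in kb, the y axis the percentile of its summit within the library's list, and grey marks the gene body. Neither region of the strong LNCaP pair near 160 kb holds a resistant summit, though resistant replicate 1 has a low-ranking summit between them, at percentile 2.01. The resistant libraries share regions near 46.3, 55.1 and 114.0 kb that both LNCaP libraries lack.

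ERBB2, the ligand-less partner of the family also known as HER2, is at chr17:39688094-39728658 with PGAP3, PNMT, MIEN1 and GRB7 in the same window. It kept the largest share of its regions, with 7 of 14 shared, none resistant-only and 1 LNCaP-only, at percentile 38.4 and 27.2. Its start summit, which also lies at the start of PGAP3, was at 78.8 and 90.5 in LNCaP and at 81.8 and 64.9 in the resistant libraries, which overlap. A region 29.0 kb inside the gene, chr17:39716767-39717347, was at 86.5 and 88.8 in LNCaP and at 56.5 and 4.58 in the resistant libraries. The groups did not overlap and differed by −57.1 points (pooled SD 26.0), or by −31.1 without resistant replicate 2, so the size depends on that library. The strongest ERBB2 summit, 15.4 kb from the start, stood at 91.3, 90.8 and 90.8 in the first 3 libraries. In resistant replicate 2 the strongest lay at GRB7, at 83.7.

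ERBB3, the neuregulin receptor whose kinase is weak and which signals through its partners, is at chr12:56080108-56103505. Its start was at percentile 86.4 and 89.5 in LNCaP and at 91.1 and 90.6 in the resistant libraries. The groups did not overlap and differed by 2.89 points (pooled SD 1.61), by 18.2 in lists of equal length and by 14.8 among shared regions. The first difference was 1.302 without LNCaP replicate 1 and 4.48 without LNCaP replicate 2. A shared region 6.24 kb inside the gene moved the other way, from 73.3 and 72.5 to 60.1 and 16.8. The strongest summit of the window, from 99.8 in both LNCaP libraries to 98.4 and 96.4, lay at the start of the neighbouring gene PA2G4. The 2 LNCaP-only regions of the ERBB3 window were at 50.9 and 67.6, past the end of the gene, and at 42.6 and 20.4, inside it.

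ERBB4, also a neuregulin receptor, spans 1163 kb at chr2:211375717-212538802 on the minus strand and had regions that rose and regions that fell in rank. Its start was at percentile 38.5 and 28.5 in LNCaP and at 68.4 and 47.1 in the resistant libraries. The resistant libraries were both higher, by 24.3 points on average (pooled SD 11.7) and by 13.6 without resistant replicate 1. In lists of equal length, where neither LNCaP start summit was kept, the difference was 49.0. The summits compared were not at the same site, 34 and 4 bases past the start in LNCaP and 855 and 422 bases past it in the resistant libraries. The merged region over the start was at 59.5 and 28.5 in LNCaP and at 68.4 and 64.2 in the resistant libraries. Deep in the gene, 581 kb from the start, the region chr2:211957905-211958465 was at 8.58 and 7.62 in LNCaP and at 58.2 and 51.4 in the resistant libraries. That difference, 46.7 points with a pooled SD of 3.42, was the largest rise among the shared regions of the 10 genes, and it lay between 43.3 and 50.1 when each library was left out in turn.

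Near the 3′ end of ERBB4 the order was the opposite. The region chr2:211396736-211397255, 1142 kb from the start, was at 90.8 and 82.4 in LNCaP and at 41.9 and 23.8 in the resistant libraries, a difference of −53.8 (pooled SD 10.0). The strongest ERBB4 summit was 1160 kb from the start in both LNCaP libraries, at 94.5 and 99.0, and 1130 kb from it in both resistant libraries, at 96.1 and 90.2. Its 3 resistant-only regions were of middle or low rank. They were at 58.2 and 23.8 (chr2:212227710-212228222), at 33.0 and 0.629 (chr2:211822909-211823427) and at 4.67 and 9.58 (chr2:211455149-211455659). Its 2 LNCaP-only regions were at 54.3 and 27.1 and at 37.3 and 27.1. ERBB4 had 17 and 17 summits in LNCaP and 19 and 12 in the resistant libraries, so that per 10000 summits of a list its count was 1.75 times that of LNCaP.

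The FGFR genes encode the fibroblast growth factor receptors. FGFR1, at chr8:38411143-38468635 on the minus strand, had its strongest summit at its start in all 4 libraries, at percentile 91.8 and 98.1 in LNCaP and at 93.6 and 67.4 in the resistant libraries. The difference of −14.5 (pooled SD 13.5) rested on resistant replicate 2, and the groups overlapped. In its window, shared with LETM2, it had 5 LNCaP-only regions of 11, the strongest of them past the end of FGFR1 at 73.3 and 76.7. The next of these FGFR1 regions were at 42.0 and 45.4 and at 37.3 and 29.2. FGFR2, at chr10:121478330-121598458 on the minus strand, had a start at 88.9 and 88.6 in LNCaP and at 90.2 and 84.0 in the resistant libraries, which overlap. Inside FGFR2 a LNCaP-only region at chr10:121572687-121573258, 25.5 kb from the start, was at 84.6 and 82.9, and another was at 41.1 and 33.1. A shared region 8.73 kb from the start was lower without overlap, from 94.3 and 81.3 to 72.7 and 51.7. At the FGFR2 start the difference was −1.65 (pooled SD 3.13), but 12.1 in lists of equal length and 7.69, without overlap, among shared regions.

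FGFR3, at chr4:1793293-1808867, had a low-ranking start, at percentile 8.76 and 8.14 in LNCaP and at 40.1 and 19.0 in the resistant libraries. Both resistant values were higher, by 21.1 points on average (pooled SD 10.6), by 10.5 without resistant replicate 1 and by 31.7 without resistant replicate 2. The difference was 9.66 among shared regions. It was 13.0 in lists of equal length, where neither LNCaP start summit was kept. Among summits scored at least 10 it was 4.38, where only resistant replicate 1 (score 11.7) kept a start summit. Past its other end, in the window shared with LETM1, a LNCaP-only region at chr4:1819214-1819744 was at 87.0 and 84.9, and another at the end of FGFR3 itself was at 67.3 and 71.8. The strongest summit of the window accordingly fell from these values to 55.2 and 38.9 in the resistant libraries, a difference of −38.9 (pooled SD 8.20). This depends on the window, with −22.5 for flanks of 5 kb and −5.02 for flanks of 50 kb. FGFR4, at chr5:177086915-177098144 in a window shared with ZNF346, had neither LNCaP-only nor resistant-only regions. Its start was at 53.8 and 64.9 in LNCaP and at 62.1 and 49.8 in the resistant libraries, which overlap. A shared FGFR4 region 14.9 kb upstream was lower without overlap, from 79.7 and 62.4 to 45.6 and 9.58.

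MET, the receptor of hepatocyte growth factor, is at chr7:116672196-116798377 and kept a strong start while its strongest inner region dropped. The start was at percentile 93.6 and 79.8 in LNCaP and at 97.2 and 84.4 in the resistant libraries, higher within both batches but overlapping between the groups (difference 4.13, pooled SD 9.39). The MET start differed by 22.1 points in lists of equal length and by 18.0 among shared regions. The region chr7:116780814-116781460, 109 kb inside the gene, was at 98.4 and 98.3 in LNCaP and at 51.6 and 30.6 in the resistant libraries. That fall of −57.2 points (pooled SD 10.5) was the largest among the shared regions of the 10 genes, and it lay between −46.7 and −67.7 when each library was left out in turn. Past the end of MET the region chr7:116810171-116810840 was higher in the resistant libraries, at 59.0 and 50.9 against 42.3 and 13.6, by 27.1 points, or by 12.7 without LNCaP replicate 2. The 3 LNCaP-only regions of MET were of middle rank, the strongest by mean, at −7.73 kb from the start, at 58.6 and 55.3 and the others, inside the gene, at 65.1 and 39.8 and at 61.5 and 21.1.

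IGF1R, the receptor of insulin-like growth factor 1, at chr15:98648539-98964530, was the receptor gene with the greatest loss of summits. It had 47 and 42 summits in LNCaP and 13 and 8 in the resistant libraries, a fall from 44.5 ± 3.54 to 10.5 ± 3.54 (SD, n = 2), and 34 fewer on average. Per 10000 summits of a list this was 3.96 in LNCaP and 1.79 in the resistant libraries, a ratio of 0.453. Among 2808 genes with at least 10 summits in LNCaP the median ratio was 0.927, and 8.05% had a ratio at or below that of IGF1R. In lists of equal length IGF1R still had 11 fewer summits.

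Of 56 regions in the IGF1R window, which is shared with PGPEP1L, 25 were LNCaP-only and none resistant-only. As many LNCaP-only regions were found in 29 of the 20037 gene windows, 0.145%, a count that again grows with window length. The strongest were chr15:98686898-98687405 at 89.6 and 86.7, chr15:98751720-98752274 at 92.5 and 81.7 and chr15:98952429-98952974 at 84.3 and 86.2. They lay 38.6, 103.5 and 304.2 kb from the start, spread over the gene body. In lists of equal length IGF1R had 9 LNCaP-only regions and 1 resistant-only region, and among summits scored at least 10 it had 14 and 1.

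A part of the IGF1R landscape was retained. The region at chr15:98852197-98852716, 203.9 kb inside the gene, was at 87.2 and 85.3 in LNCaP and at 93.2 and 93.2 in the resistant libraries, and was the strongest IGF1R summit of both resistant lists. The strongest summits in LNCaP, 92.5 and 93.8, lay elsewhere in the gene, so that the highest rank within IGF1R hardly differed (difference 0.124, pooled SD 0.651). At the start itself the summit was at 5.11 and 14.6 in LNCaP and at 49.2 and 17.3 in the resistant libraries, higher by 23.4 points (pooled SD 16.6), by 7.44 without resistant replicate 1 and by 39.3 without resistant replicate 2. A stronger region, at −1.18 kb from the start, ran the other way, at 48.3 and 40.8 in LNCaP and at 26.8 and 17.6 in the resistant libraries, and with the start taken as 3 kb on either side IGF1R differed by −11.1. The direction at the IGF1R start therefore depends on which of these neighbouring regions is counted.

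**Figure D4:**
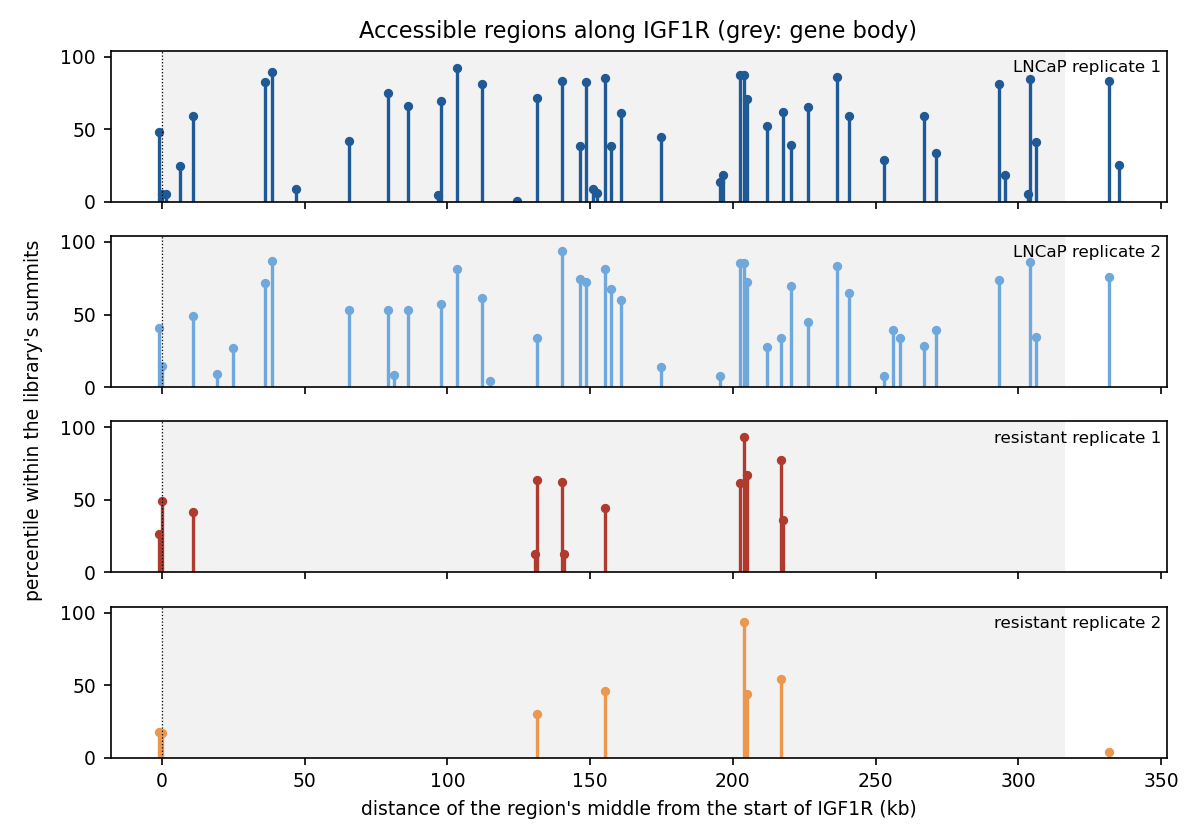
Accessible regions along IGF1R in each library. The x axis is the distance of a region's middle from the gene start in kb, the y axis the percentile of its summit within the library's list, and grey marks the gene body. The dense row of summits over the gene body in LNCaP, 47 and 42 in the window, is reduced to 13 and 8 in the resistant libraries, with the peak at 203.9 kb retained.

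Over the strongest summit of each window, 6 receptor genes were lower in the resistant libraries without overlap, EGFR, ERBB2, ERBB3, FGFR3, FGFR4 and MET, where 42.9% of 19119 genes were, and none was higher, where 15.4% were. In lists of equal length 3 were lower and 2 higher, and ERBB2 and FGFR4 were then higher on average. By the number of summits, 5 were lower without overlap, EGFR, ERBB3, FGFR1, FGFR2 and IGF1R, where 52.2% of the 19119 genes were, and none was higher (2.44% of all). Per 10000 summits of a list, FGFR2 and IGF1R were lower (19% of all genes) and ERBB2, ERBB3, ERBB4, FGFR4 and MET higher (45.4% of all). Apart from the single genes described, these counts were of the order seen over all genes.

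The 42 shared regions allowed the same sites to be compared in all 4 libraries. Of these, 17 were lower in the resistant libraries without overlap (41.8% of all 31833 shared regions were), 10 were higher (17.7% of all) and 15 overlapped. Their median difference was −5.95 points, against −4.65 over all shared regions. Within the batch repeat1 the median at the receptor genes was 0.151 and within repeat2 it was −9.81, and in lists of equal length it was 4.14, against 4.61 over all, so no direction of the set as a whole was stable. Starts and other sites differed: 11 shared regions at the genes' own starts had a median of 2.89 (4 higher, 1 lower), and 27 away from gene starts had a median of −16.2 (6 higher, 14 lower). The same order was seen over all shared regions, with medians of 0.387 at starts and −9.98 away from them. There, only gene starts of known direction counted as starts. At the receptor genes, second annotated starts and ends of genes of unknown direction did too, so the sizes are not directly comparable.

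**Figure D5:**
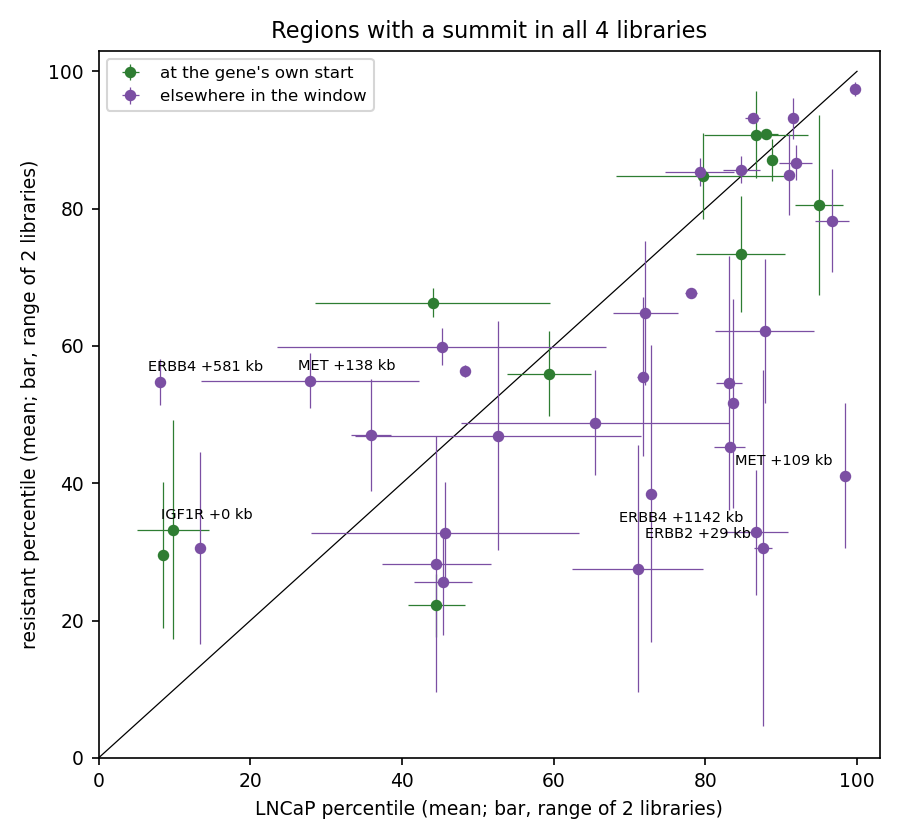
Shared regions at the 10 receptor genes, with the mean percentile in LNCaP on the x axis and in the resistant libraries on the y axis. Bars span the 2 libraries of a group, the line marks equal ranks, and the 3 largest differences in each direction without overlap are named with their distance from the gene start. Points at gene starts (green) lie mostly near or above the line, and many other regions (purple) lie below it, with the MET region at 109 kb farthest from it.

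Regions of high rank were looked at separately, taking a mean percentile of at least 80 in a group as strong, a limit set after the data were seen. Of 29 strong LNCaP regions at the receptor genes, 8 were absent from both resistant libraries, 27.6% against 21.5% of all strong LNCaP regions. None of these 8 lay at a start, so that away from starts they were 8 of 21, 38.1% against 27.8% of all. The 2 shares are not on the same footing. At the receptor genes, second annotated starts and ends of genes of unknown direction also counted as starts. Over all regions only gene starts of known direction did. By gene, 4 lay at IGF1R, 2 at EGFR, 1 at FGFR2 and 1 at FGFR3. Of 12 strong resistant regions none was absent from both LNCaP libraries, where 2.44% of all were, or 3.43% of those away from starts. At 12 regions that count of 0 is near the share over all regions. These counts are of the full lists. A cut at percentile 80 takes fewer summits from the shorter resistant lists, and absence is less likely from the longer LNCaP lists. The counts of the 2 groups are therefore not on 1 scale.

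The same start-site measure was applied to 58 other genes of the pathway, of which 46 had a known start and 40 a summit there in at least 1 library. In the resistant libraries 15 of the 40 were higher without overlap, against 28.8% of all genes, and 6 were lower, against 20.7%. Among those with a summit, 5 of 11 ligand genes were higher, 3 of 3 other receptors and co-receptors, 4 of 16 adaptors and kinases and 3 of 10 inhibitors and feedback genes, and lower were 2, 0, 1 and 3 of them. In lists of equal length 27 were higher and 3 lower, where 66.1% of all genes were higher and 5.42% lower.

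Among the genes whose groups did not overlap, the 3 largest falls were at IGF1, NRG4 and SPRY4. The start of IGF1, the ligand of IGF1R, was at 63.5 and 61.9 in LNCaP and had no summit in either resistant library. The difference, −62.7, was −29.5 among summits scored at least 10 and −8.24 in lists of equal length. The resistant value was 0 in each of these settings, so the size is that of the LNCaP percentile, taken anew in the shortened lists. NRG4, a ligand of ERBB4, was at 72.5 and 39.9 in LNCaP and at 33.4 and 4.06 in the resistant libraries (difference −37.5, or −21.2 without LNCaP replicate 1, −22.8 without resistant replicate 2 and −12.7 in lists of equal length). SPRY4, a feedback inhibitor of the RAS-MAPK cascade, was at 93.1 and 88.9 against 82.2 and 73.2. Its groups did not overlap, and the difference was −13.3, or −8.83 without resistant replicate 2, −21.6 among summits scored at least 10 and −5.37 in lists of equal length.

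In the other direction, FGF10, a stromal ligand of FGFR2, had no summit in LNCaP replicate 1, was at 0.800 in replicate 2, and was at 62.9 and 54.3 in the resistant libraries. HGF, the ligand of MET, had none in LNCaP replicate 1, 38.5 in replicate 2, and 67.6 and 65.8 in the resistant libraries. IGF2R, which clears IGF2 from the cell surface, had none in LNCaP replicate 1, 59.9 in replicate 2, and 83.4 and 76.4 in the resistant libraries. The differences of HGF and IGF2R, 47.5 and 49.9, were 28.2 and 19.97 without LNCaP replicate 1. IGF2R differed by only 9.96 with the start taken as 3 kb on either side, and FGF10 by 28.7 in place of 58.2 among summits scored at least 10.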

How the data were processed

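Per the labels, ATAC-seq libraries of 2 LNCaP and 2 LNCaP-resistance samples were made with a commercial tagmentation kit. Each library has 1 deposited summit list, whose score column reads as −log10 of a p-value or of a q-value; which one is not given in the sources used here. The submitters' processing notes name hg38, Bowtie2 2.2.5, SAMtools 1.6, MACS2 2.2.6, deepTools 3.5.2, HOMER 4.11 and edgeR 3.22.5, without their settings. Peaks were called per library. Without read counts the depth and its precision are unknown, and absence of a summit may reflect a shallower library.

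Summits extended by 250 bp were merged into regions with Python 3.11.15, numpy 2.4.6 and pandas 2.3.3, and figures were drawn with matplotlib 3.10.9. Percentiles were taken within each list, and a gene without a summit was given 0. Gene ends and promoter sequences came from RefSeq tables of GRCh38.p14, the same build as the lists. They give no exons, so positions are stated by distance from the start. The direction of ERBB3 and FGFR1 was set from general knowledge, because neither matched the promoter table, which held the other 8 genes. Differences were tested with two-sided exact permutation tests over libraries.

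The members and lists were chosen with earlier results of these data known. Named were all 10 genes with their start-site and strongest summits, up to 3 specific regions each way per gene, and the 3 largest non-overlapping differences each way among shared regions and among pathway genes. The batch labels pair the libraries by number. The deviations of same-numbered libraries did not run together (Pearson r = −0.0121 across 31833 shared regions). The code for region classes was run on simulated, well-separated regions without missed summits, where 100% of 10000 regions were recovered. That checks the code only, and not how often missed summits change a class in the real lists. Alternatives were lists of equal length, a minimum score of 10, other windows, leaving out each library, the batch as a block and, added after seeing the data, percentiles among shared regions.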

Additional observations from a re-analysis of the deposited data

How the results depend on the processing

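Lists of equal length (45618 summits each) changed most counts. At the receptor genes they gave 15 LNCaP-only, 15 resistant-only and 26 shared regions, a median difference of shared regions of 4.14 (4.61 over all shared regions), 3 genes with more and 2 with fewer summits, 2 genes with a higher and 3 with a lower strongest summit, 8 higher starts, and 27 higher and 3 lower pathway genes. Over all genes 66.1% of starts were higher and 5.42% lower in this setting. EGFR then had 2 more summits in the resistant libraries, and the strongest summits of ERBB2 and FGFR4 were 6.71 and 12.9 points higher. A minimum score of 10 gave 28 LNCaP-only, 3 resistant-only and 18 shared regions. These were 26.4%, 2.83% and 17%, against 25%, 4.33% and 21.2% of all regions in that setting. It also gave 2 higher starts and 3 lower pathway genes. Counting a summit in at least 1 library gave 95, 30 and 66 regions. These were 49.7%, 15.7% and 34.6%, against 52%, 12.9% and 35.1% of all regions. The gene body alone gave 27 shared regions. Starts within 3 kb gave −11.1 for IGF1R and 11 lower pathway genes. Percentiles among shared regions, an alternative chosen after seeing the data, gave a median of 1.53 over all shared regions and of −0.213 at the receptor genes. With lists of equal length and with the minimum score, percentiles were taken anew in the shortened lists. A start left without a summit was given 0. For equal length this by itself lowers percentiles most in the LNCaP lists, which were cut most. Any further cause of these changes, and the cause of those with the wider start window and the shared-region percentiles, was not tested.

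Leaving out each library in turn gave 57 to 78 LNCaP-only, 9 to 27 resistant-only and 42 to 56 shared regions, a median difference of shared regions of −16.4 to −2.75 (−10.2 to −3.47 over all), 0 to 2 genes with more and 5 to 10 with fewer summits, 0 to 1 with a higher and 6 to 9 with a lower strongest summit, 4 to 6 higher and 0 to 4 lower starts, and 18 to 23 higher and 7 to 14 lower pathway genes. A group of 1 library can overlap less, and these counts carry no test. Without resistant replicate 1 the median at the receptor genes was −16.4, 10 genes had fewer summits, and 4 starts and 14 pathway genes were lower. Without resistant replicate 2, 27 regions were resistant-only and 23 pathway genes were higher. Without LNCaP replicate 1, 3 starts and 11 pathway genes were lower, and without LNCaP replicate 2, 1 start was. With the replicate block, region classes were the same, 7 genes had fewer summits, 7 a lower strongest summit and 5 a higher start, and 19 pathway genes were higher and 9 lower. Within batch repeat1 alone the receptor genes' shared regions had a median difference of 0.151. No other count moved by over 1.5 times under the block. The lists carry no reads, so whether an absent summit reflects depth was not tested.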
